A study of Mus musculus with 8 samples.

Results

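The ligands, receptors and latency proteins of TGF-β signaling were followed as 9 genes, namely Tgfb1, Tgfb2, Tgfb3, Tgfbr1, Tgfbr2, Tgfbr3, Eng, Acvrl1 and Ltbp1. They were chosen by symbol, with earlier results of these data known. All 9 were present among the 13687 genes of the table, and all 9 were among the 13665 genes that passed the filter on low values. RNAseq was performed on primary mesothelial cells (MCs) taken by trypsin digestion from the parietal peritoneum of mice. Cells from 2 WT mice and from 2 littermates homozygous for the CAV1 knockout allele B6.Cg-CAV1tm1mls/J were grown to confluence, and each animal gave 1 culture left static and 1 culture stretched for 24 h. This made 8 libraries in 4 groups of 2 cultures (WT static, WT stretched, CAV1-/- static, CAV1-/- stretched), in which replicate 1 and replicate 2 of a genotype are different animals. The number of animals is that of the sample labels, and the published legend for these mouse data gives a larger number per condition. The knockout allele is constitutive rather than limited to MCs, the cells were expanded in culture, and the age and sex of each animal were not given in the sources used here.

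TGF-β is secreted as a latent complex in which the mature dimer is held by its own propeptide, and the propeptide is often bound to a latent TGF-β binding protein such as that encoded by Ltbp1, which stores the complex in the extracellular matrix. Integrins and proteases release the ligand, which binds the type II receptor (Tgfbr2) and brings in the type I receptor (Tgfbr1), whose kinase phosphorylates Smad proteins, while betaglycan (Tgfbr3) and endoglin (Eng) act as co-receptors and Acvrl1 encodes an alternative type I receptor. In the peritoneum this pathway is known as a driver of mesothelial-to-mesenchymal transition and fibrosis, and CAV1, the structural protein of caveolae, is known to take part in the internalization of TGF-β receptors.

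Values are TMM-normalized CPM, meaning read counts scaled to library size with the trimmed-mean factors of edgeR. Library totals were between 9777738 and 21203938 reads, and every stretched library (15861571 reads or more) was deeper than every static one (14237503 reads or fewer), so depth and stretch cannot be told apart. Cav1 was measured at 763.7, 274.9, 569.9 and 247.5 in the libraries of WT static replicates 1 and 2 and WT stretched replicates 1 and 2, and between 12.8 and 34.5 in the CAV1-/- libraries. The summed level of 12 mesothelial markers was 2979 to 3792 in WT and 915 to 1146 in CAV1-/- libraries. Of these markers, Wt1 (94.9 to 133.3 in WT and 74.9 to 138.4 in CAV1-/-) and Krt19 (21.7 to 65.9 and 2.67 to 69.4) overlapped between genotypes, and the others were lower in CAV1-/- libraries. The summed level of 11 leukocyte markers was 74.8 to 457.0 in WT libraries and 299.0 and 330.4 in the CAV1-/- cultures of replicate 2, but 4713 and 4738 in the static and stretched cultures of CAV1-/- replicate 1, where Ptprc, the pan-leukocyte antigen, was at 37.6 and 30.8 against 0.97 to 4.27 in the other 6 libraries. These cultures were bulk samples, so fewer cells of a type and less RNA per cell cannot be told apart. The mean stretch differences of the members over the animals, and the counts of called genes, are also given without CAV1-/- replicate 1.

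Tgfb3 was the most abundant member and Tgfb2 the least abundant when levels were divided by exon length. Per kb of all annotated exons (GENCODE M21), Tgfb3 averaged 48.2 TMM-normalized CPM over the 8 libraries (35.1 to 64.6), Tgfbr2 25.0 (18.7 to 29.7), Tgfbr3 19.9 (7.71 to 30.5) and Tgfb1 16.6 (11.4 to 23.5). Tgfbr1 averaged 9.69 per kb, Ltbp1 9.13, Eng 4.41, Acvrl1 4.37 and Tgfb2 3.14. Tgfb3 was above Tgfbr2 in 8 of 8 libraries and Ltbp1 above Eng in 8 of 8, while Tgfbr3 and Tgfb1 were in that order in 4 of 8, Tgfbr1 and Ltbp1 in 4 of 8 and Eng and Acvrl1 in 5 of 8, so these neighbours did not differ beyond their spread. The place of Tgfb1 depends on the length used, because its exon union (5042 bp) is longer than its longest transcript (2573 bp). Per kb of the longest transcript Tgfb1 averaged 32.4 and stood next to Tgfb3.

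**Figure D1:**
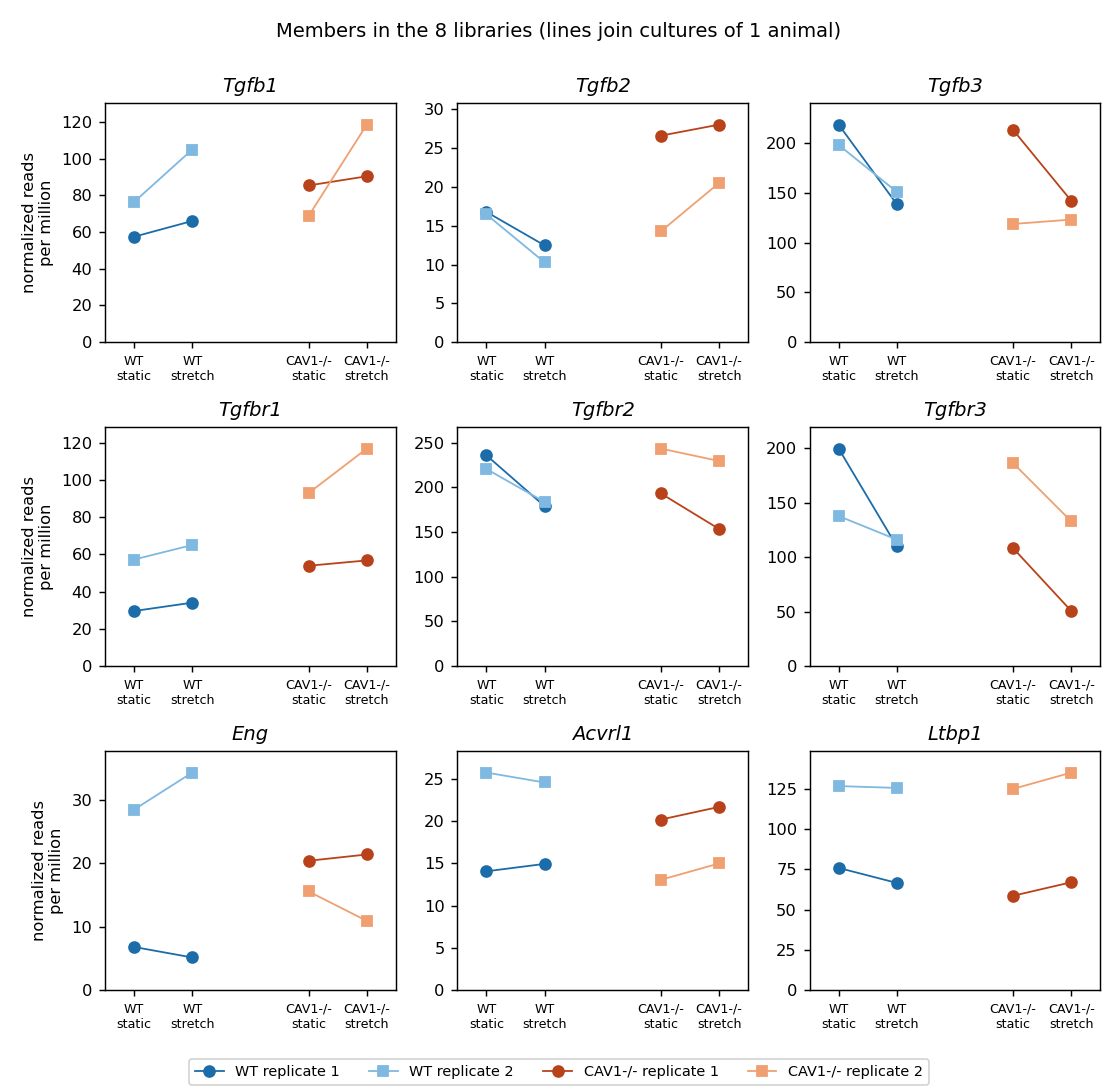
TMM-normalized CPM (y axis, linear, from 0) of each of the 9 members in the 8 libraries, with static and stretched cultures of the same animal joined by a line (blue, WT, orange and red, CAV1-/-, circles, replicate 1, squares, replicate 2). Tgfb1 and Tgfbr1 lie higher in the stretched culture of all 4 animals and Tgfbr2 and Tgfbr3 lower, and Tgfb2 lower in both WT animals and not in the CAV1-/- animals.

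Of the ligands, Tgfb1 encodes the isoform most studied in fibrosis (ENSMUSG00000002603, GRCm38 chr7:25687002-25705077, plus strand). In static cultures Tgfb1 was measured at 57.4 and 76.4 TMM-normalized CPM in WT and at 85.4 and 68.8 in CAV1-/- MCs. In stretched cultures it was at 66.0 and 105.0 in WT and at 90.4 and 118.5 in CAV1-/- MCs. The stretched culture was the higher one in 4 of 4 animals, by 15.0% and 37.4% in WT replicates 1 and 2 and by 5.86% and 72.4% in CAV1-/- replicates 1 and 2, and the static and stretched groups did not overlap in CAV1-/- MCs but did in WT. The share of all genes without such overlap was not counted. The overlap in 1 genotype only is not a difference between genotypes, as the genotype by stretch interaction of Tgfb1 was 0.10 on the log2 scale (SE 0.39).

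Tgfb2, the isoform that needs betaglycan for high-affinity receptor binding (ENSMUSG00000039239, chr1:186622792-186705989, minus strand), was the rarest ligand, with 139 to 578 reads per library. Its static values were 16.8 and 16.5 in WT and 26.6 and 14.3 in CAV1-/- MCs. Its stretched values were 12.5 and 10.3 in WT and 28.0 and 20.5 in CAV1-/- MCs. The stretched value was below the static one in both WT animals and above it in both CAV1-/- animals, and in stretched cultures the genotypes did not overlap.

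Tgfb3 (ENSMUSG00000021253, chr12:86056745-86079041, minus strand) was measured in static cultures at 218.6 and 198.2 in WT and at 213.2 and 118.7 in CAV1-/- MCs. On stretch it was at 138.6 and 151.0 in WT and at 141.9 and 123.2 in CAV1-/- MCs. It was 36.6%, 23.8% and 33.4% below the static culture in 3 animals and 3.75% above it in CAV1-/- replicate 2, whose static culture already had the lowest Tgfb3 of the 8 libraries.

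The ligand mixture had a smaller share of Tgfb3 and a larger share of Tgfb1 in the stretched culture of each animal. On the undivided values, the ratio of Tgfb3 to Tgfb1 was 3.81 in the static and 2.10 in the stretched culture of WT replicate 1, and 2.60 and 1.44 in those of WT replicate 2. In CAV1-/- MCs it was 2.50 and 1.57 in replicate 1 and 1.73 and 1.04 in replicate 2. The ratio was 37.1% to 44.8% lower on stretch in 4 of 4 animals, with a mean log2 change of -0.78 ± 0.09 (SD, n = 4 animals), and it changed little in size without CAV1-/- replicate 1 (-0.81). This change in a ratio does not depend on gene length or on the scaling between libraries. The ratio was examined after the values had been seen and carries no test, and with 4 animals an exact sign-flip permutation test could not give a two-sided p below 0.125.

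Expressed as shares of the summed ligand level per kb of exon, Tgfb3 made up 79.2% ± 3.8 of the ligand mRNA in WT static, 69.6% ± 4.6 in WT stretched, 71.5% ± 4.2 in CAV1-/- static and 61.1% ± 5.3 in CAV1-/- stretched cultures (SD, n = 2 cultures each). The share of Tgfb1 was 17.1% ± 3.8, 27.1% ± 5.4, 23.3% ± 4.7 and 32.4% ± 6.6 in the same groups, and that of Tgfb2 was between 2.64% and 7.48% in every library. Within animals the share of Tgfb3 was 9.01, 10.1, 9.72 and 11.2 percentage points lower on stretch in WT replicates 1 and 2 and CAV1-/- replicates 1 and 2, and the share of Tgfb1 was 7.67 to 11.2 points higher. With the longest transcript as length, the Tgfb1 share was larger throughout and exceeded that of Tgfb3 in 1 library, the stretched culture of CAV1-/- replicate 2 (53.3% against 42.1%). The direction of the within-animal differences of Tgfb1 and Tgfb3 was the same with either length.

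**Figure D2:**
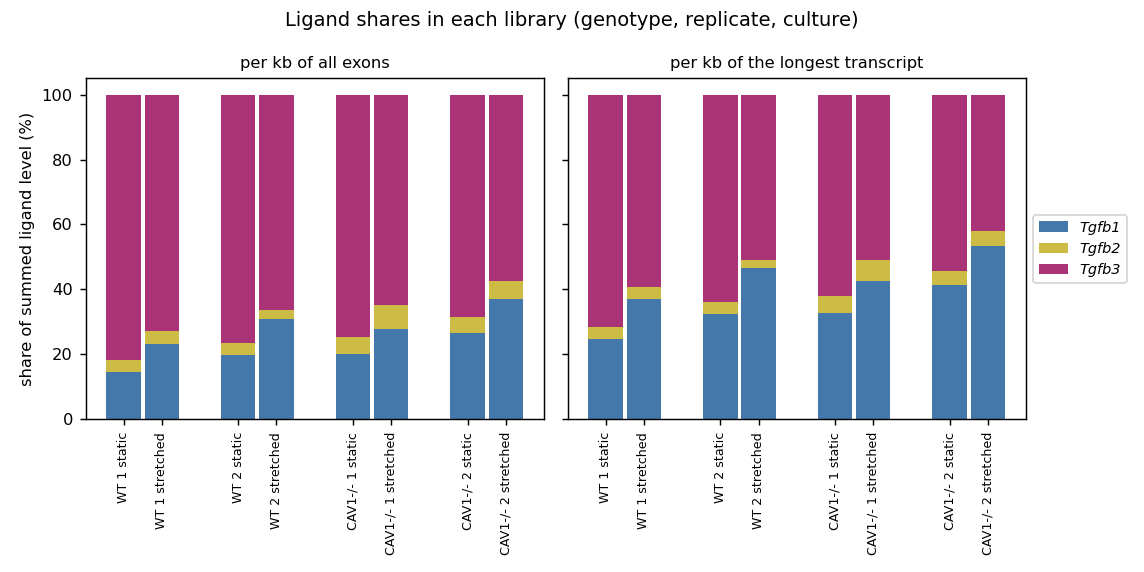
Share of Tgfb1, Tgfb2 and Tgfb3 (stacked bars, percent) in the summed ligand level of each library, per kb of all exons on the left and per kb of the longest transcript on the right. In each of the 4 pairs of bars the stretched culture has a larger Tgfb1 share and a smaller Tgfb3 share than the static culture of the same animal.

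Among the receptors, Tgfbr1, the type I kinase receptor (ENSMUSG00000007613, chr4:47353222-47414931, plus strand), was measured at 29.6 and 57.2 in WT static and at 53.9 and 92.9 in CAV1-/- static cultures. On stretch it was at 34.1 and 65.1 in WT and at 56.8 and 116.8 in CAV1-/- MCs. It was higher on stretch in 4 of 4 animals, by 5.32% to 25.7%, a difference that was small beside the spread between animals of 1 genotype. Replicate 2 was the higher one in all 4 groups.

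Tgfbr2, the type II kinase receptor that binds the ligand first (ENSMUSG00000032440, chr9:116084293-116175360, minus strand), had the smallest spread of the members, with a highest library 1.59 times the lowest. Static values were 235.7 and 220.4 in WT and 193.0 and 243.2 in CAV1-/- MCs. Stretched values were 178.8 and 183.6 in WT and 153.3 and 229.4 in CAV1-/- MCs. The stretched culture was lower in 4 of 4 animals, by 5.71% to 24.1%. The WT static and stretched groups did not overlap, as also for Tgfb2, Tgfb3 and Tgfbr3. For this too the share of all genes was not counted, so whether these members stand out by it is not known.

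Together these gave a lower ratio of Tgfbr2 to Tgfbr1 mRNA in each stretched culture. The ratio of undivided values was 7.97 static and 5.25 stretched in WT replicate 1, and 3.85 and 2.82 in WT replicate 2. In CAV1-/- MCs it was 3.58 and 2.70 in replicate 1 and 2.62 and 1.96 in replicate 2. The mean log2 change was -0.47 ± 0.09 (SD, n = 4 animals), lower in 4 of 4 animals and -0.49 without CAV1-/- replicate 1, and as for the ligands the ratio was examined after the values had been seen and carries no test. Both ratios were lower in CAV1-/- than in WT static cultures without overlap, and that of the receptors also in stretched cultures, a separation that 2 cultures against 2 cannot bring below an exact permutation p of 0.33. Of single genes, 36.9% separated the genotypes in this way in static and 30.5% in stretched cultures, and the share of ratios was not counted.

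Tgfbr3, which encodes the co-receptor betaglycan (ENSMUSG00000029287, chr5:107106570-107289629, minus strand), had the largest mean log2 difference on stretch over the 4 animals among the 9 members, though in replicate 2 of each genotype other members differed by more. Static values were 199.6 and 137.7 in WT and 108.1 and 186.2 in CAV1-/- MCs. Stretched values were 109.9 and 116.1 in WT and 50.5 and 132.7 in CAV1-/- MCs. The stretched culture was lower in 4 of 4 animals, by 44.9% and 15.7% in WT and by 53.3% and 28.7% in CAV1-/- replicates 1 and 2, and its lowest value was in the stretched culture of CAV1-/- replicate 1, the animal with high leukocyte markers.

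Eng, the endoglin co-receptor best known from endothelium (ENSMUSG00000026814, chr2:32646595-32682669, plus strand), differed mostly between animals. The static and stretched cultures were at 6.79 and 5.13 in WT replicate 1 and at 28.4 and 34.3 in WT replicate 2. In CAV1-/- MCs they were at 20.4 and 21.3 in replicate 1 and at 15.5 and 10.9 in replicate 2. The highest library was 6.68 times the lowest, the largest spread of the members, and the stretched culture was higher in 2 animals and lower in 2.

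Acvrl1, the type I receptor ALK1 (ENSMUSG00000000530, chr15:101128522-101145336, plus strand), was low in every library. It was at 14.1 and 25.8 in WT static, 14.9 and 24.6 in WT stretched, 20.2 and 13.1 in CAV1-/- static and 21.7 and 15.0 in CAV1-/- stretched cultures. No change on stretch exceeded 14.8% in an animal. For both genes, which endothelial cells also express, the endothelial marker Cdh5 was at 0.25 to 1.65 in the 8 libraries and 6 endothelial markers summed to 24.1 to 73.7. Within that sum Kdr alone was at 7.75 to 66.0, and the paper counts KDR among markers that MCs share with endothelial cells. The part of these markers in the levels of Eng and Acvrl1 was not tested.

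Ltbp1, the latent TGF-β binding protein (ENSMUSG00000001870, chr17:75005568-75392512, plus strand), was measured at 75.9 and 126.8 in WT static and at 66.6 and 125.6 in WT stretched cultures. In CAV1-/- MCs it was at 58.6 and 125.0 static and at 67.0 and 135.2 stretched. It followed the animal rather than the condition: replicate 2 was at 125.0 or more and replicate 1 at 75.9 or less in every group. Tgfbr1 and Ltbp1 were higher and Tgfb2 lower in replicate 2 of all 4 groups, 3 of 9 members with 1 order throughout against 43.1% of all genes. Of 9 fibroblast and mural markers, 6 were likewise higher in replicate 2 of every group, among them Pdgfra, a fibroblast receptor, at 489.7 to 706.2 against 19.3 to 264.0 in replicate 1. The muscle genes Myh11 (7.52 to 28.6 against 36.5 to 322.4) and Des (69.4 to 185.6 against 311.4 to 383.4) were lower in replicate 2 of every group, as were 10 of 11 leukocyte markers, and the part of these markers in the levels of the members was not tested.

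Whether stretch changed the members was asked first within each genotype. With limma no member passed an adjusted p of 0.05 in WT (0 of 9, against 0% of 13665 genes) or in CAV1-/- MCs (0 of 9, against 0%), and none did with edgeR or DESeq2. At an unadjusted p under 0.05 there were 0 of 9 members in each genotype, against 2.27% of all genes in WT and 2.09% in CAV1-/- MCs. The point estimates in WT were 0.33 (SE 0.28) for Tgfb1, -0.52 (SE 0.31) for Tgfb2, -0.52 (SE 0.27) for Tgfb3, -0.33 (SE 0.21) for Tgfbr2 and -0.55 (SE 0.49) for Tgfbr3, as differences of log2(value + 1). In CAV1-/- MCs they were 0.43, 0.28, -0.27, -0.21 and -0.78 with the same SEs. These SEs include the difference between animals, and the 95% intervals were wide, from -0.35 to 1.00 for Tgfb1 in WT and from -0.25 to 1.11 in CAV1-/- MCs. The Tgfbr3 difference of -0.78 in CAV1-/- MCs was -0.10 without the stretched culture of replicate 1 and -1.47 without that of replicate 2.

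With the animal as a block in the same comparisons, no member passed an adjusted p of 0.05, but more had an unadjusted p under 0.05. In WT these were Tgfb2, Tgfb3, Tgfbr2 and Tgfbr3, 4 of 9 members against 14.5% of all genes (limma adjusted p = 0.255 to 0.290). Those in CAV1-/- MCs were Tgfb1 and Tgfbr3, 2 of 9 against 13.3% (limma adjusted p = 0.354 and 0.192).

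Each animal served as its own control in the average stretch effect over 4 animals, a limma fit on log2(value + 1) with the animal as a block and 3 residual degrees of freedom. This fit was chosen with earlier results of these data known. No member passed an adjusted p of 0.05 (0 of 9, against 2.25% of the 13665 genes, 1.03% higher and 1.22% lower on stretch). At an unadjusted p under 0.05 there were 5 of 9 members with limma, edgeR and DESeq2 alike, against 21.6% of all genes with limma. Tgfb1 and Tgfbr1 were higher and Tgfbr2 and Tgfbr3 lower in all 4 animals, 4 of 9 members with 1 direction against 31.3% of all genes.

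Tgfbr3 came nearest to the threshold, with a mean log2 difference of -0.67 (SE 0.13, 95% interval -0.97 to -0.36, limma adjusted p = 0.0506, lower in 4 of 4 animals). Other settings placed it past the threshold, with an adjusted p of 0.0452 when genes with a mean under 5 were left out, 0.0464 after quantile normalization, 0.00055 with DESeq2 on recovered reads and 0.0424 without WT replicate 2, and over all settings that kept the 4 animals the adjusted p was between 0.00055 and 0.984, the highest being the fit without the block. Without CAV1-/- replicate 1 the difference was -0.53 (adjusted p = 0.144).

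For Tgfbr2 the mean log2 difference was -0.27 (SE 0.07, adjusted p = 0.0823, lower in 4 of 4 animals) and for Tgfb3 it was -0.39 (SE 0.11, adjusted p = 0.110, lower in 3 of 4). DESeq2 was the only alternative that called these genes, at adjusted p = 0.0335 and 0.0463. Tgfb1 differed by 0.38 (SE 0.11, 95% interval 0.11 to 0.64, adjusted p = 0.118, higher in 4 of 4 animals) and Tgfbr1 by 0.19 (SE 0.07, adjusted p = 0.152, higher in 4 of 4). No alternative called these 2 genes. Without CAV1-/- replicate 1 the differences of Tgfbr2, Tgfb3, Tgfb1 and Tgfbr1 were -0.25, -0.33, 0.48 and 0.24.

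The other members had small mean differences with no common direction. These were -0.12 for Tgfb2 (95% interval -0.53 to 0.30), -0.12 for Eng (-0.44 to 0.19), 0.08 for Acvrl1 (-0.12 to 0.27) and 0.03 for Ltbp1 (-0.15 to 0.20). Without CAV1-/- replicate 1 they were -0.18, -0.19, 0.07 and -0.03. The intervals of Acvrl1 and Ltbp1 leave room for changes of at most about 0.27 on the log2 scale in either direction, and that of Tgfb2 was wide, with WT and CAV1-/- animals in opposite directions.

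**Figure D3:**
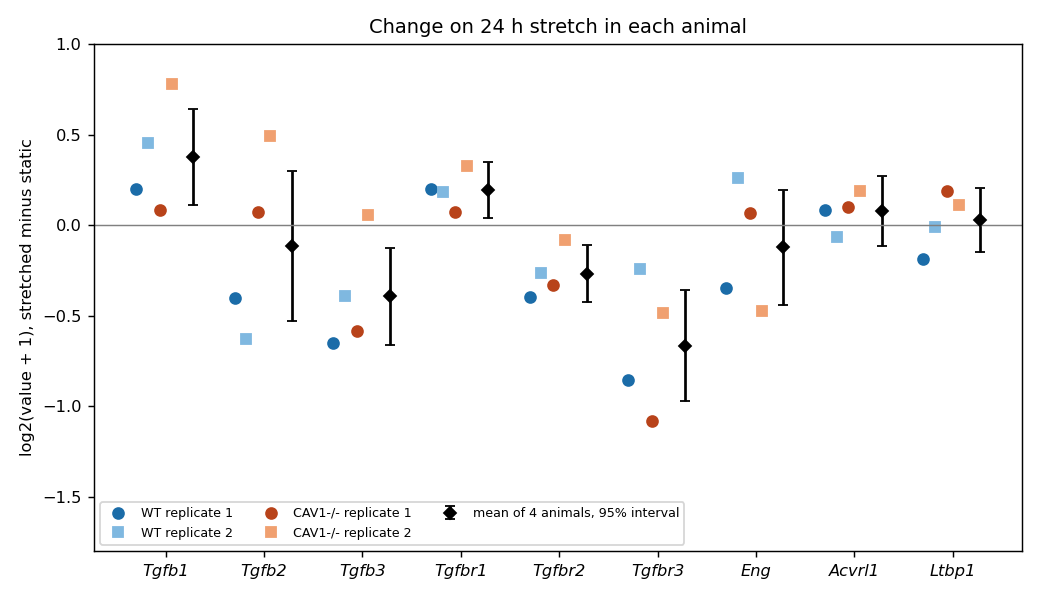
Difference in log2(value + 1) between the stretched and static culture of each animal for the 9 members (colored points), with the mean over 4 animals and its 95% interval from limma (black diamonds). All 4 points lie above 0 for Tgfb1 and Tgfbr1 and below 0 for Tgfbr2 and Tgfbr3, and none of the 9 means passed an adjusted p of 0.05.

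Loss of CAV1 was compared in static and in stretched cultures. No member passed an adjusted p of 0.05 with limma in static cultures (0 of 9, against 0.0732% of all genes) or in stretched cultures (0 of 9, against 0.0585%), and none did with edgeR or DESeq2. At an unadjusted p under 0.05 there were 0 members in static and 1 in stretched cultures with each of the 3 tools, against 8.17% and 6.26% of all genes with limma. In static cultures the genotypes overlapped for all 9 members (0 of 9 without overlap, against 36.9% of all genes), and in stretched cultures Tgfb2 alone did not overlap (1 of 9, against 30.5%). The mesothelial marker sums of the genotypes did not overlap in either condition, and their part in these comparisons was not tested.

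Tgfb2 in stretched cultures was that member, at 28.0 and 20.5 in CAV1-/- against 12.5 and 10.3 in WT MCs. The difference was 1.02 on the log2 scale (SE 0.31, 95% interval 0.27 to 1.77, limma adjusted p = 0.551, both CAV1-/- cultures above both WT cultures), with adjusted p between 0.111 and 0.869 over the alternatives. In static cultures it was 0.22 (95% interval -0.53 to 0.97). Leaving out CAV1-/- stretched replicate 1 or any other culture left the stretched difference between 0.80 and 1.24.

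The mean of Tgfbr1 was higher in CAV1-/- than in WT cultures, by 0.77 on the log2 scale in static and 0.78 in stretched cultures (SE 0.53 in each, 95% intervals -0.53 to 2.06 and -0.52 to 2.07, limma adjusted p = 0.822 and 0.958). The genotypes overlapped, since WT replicate 2 exceeded CAV1-/- replicate 1 in both conditions, and with 1 culture left out the difference was between 0.30 and 1.23 in static and between 0.26 and 1.29 in stretched cultures. The remaining members differed by less, from -0.39 (Tgfb3) to 0.31 (Eng) in static and from -0.46 (Tgfbr3) to 0.31 (Tgfb1) in stretched cultures, and the intervals of Eng reached beyond 2 in both directions.

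**Figure D4:**
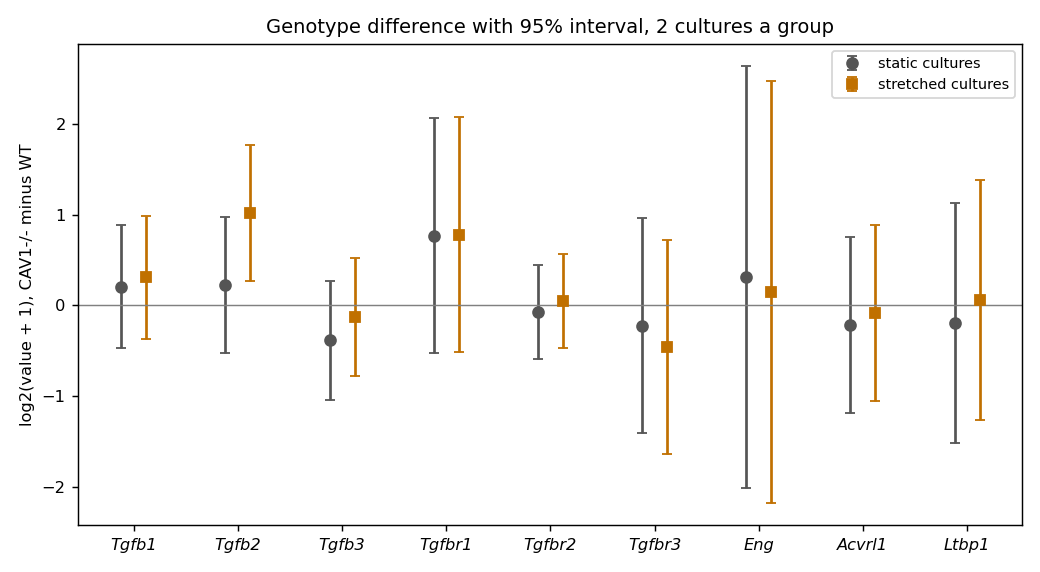
Difference in log2(value + 1) between CAV1-/- and WT cultures for the 9 members, static (grey circles) and stretched (orange squares), with 95% intervals from limma and 2 cultures in each group. Tgfb2 in stretched cultures, at 1.02, is the only member whose interval excludes 0 before adjustment.

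The genotype by stretch interaction asks whether stretch acted differently in the genotypes. No member passed with limma, edgeR or DESeq2 (0 of 9, against 0% of all genes). At an unadjusted p under 0.05 there were 0 of 9 members, against 0.483% of all genes, and with the animal as a block 1 of 9, Tgfb2, against 4.25% (limma adjusted p = 0.947). For Tgfb2 and Ltbp1 both WT animals were lower and both CAV1-/- animals higher on stretch, 2 of 9 members with opposite directions against 8.98% of all genes. For Ltbp1 the difference in WT replicate 2 was only 0.91%. The interaction was 0.80 for Tgfb2 (SE 0.44, 95% interval -0.26 to 1.86) and 0.25 for Ltbp1 (SE 0.77, 95% interval -1.62 to 2.13), each with a limma adjusted p of 1.

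The other genes of the pathway were taken from 8 lists ordered by role, in which 84 of 94 genes were measured and tested. With limma none of the 84 was called in either genotype comparison, in the stretch comparisons within a genotype or in the interaction. DESeq2 on recovered reads called 6 of them between genotypes in static and 5 in stretched cultures, among 309 and 238 genes called in all. In the average stretch effect it called 29, among 777. The counts of the 84 with edgeR were 0, 0 and 14. In the average stretch effect with limma 8 rose and 6 fell, or 16.7% of the 84 against 2.25% of all genes, and the lists were drawn up with earlier results of these data known. Without CAV1-/- replicate 1 there was 1 call among the 84 genes, Bmp4, and 4 among all genes, and without CAV1-/- replicate 2 there were none. Medians are set beside that of all genes, which was -0.0093 on the log2 scale. A limma call rests on the same 4 differences, so a direction shared by 4 of 4 animals is not separate evidence for it.

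Of the activators of latent TGF-β, 4 of 14 rose on stretch, 1 fell and 9 did not pass, with a median log2 difference of 0.35. Itgb3, the integrin β3 chain that pairs with αv, was at 18.5, 56.6, 79.1 and 110.0 in the static and at 58.2, 121.4, 122.6 and 262.1 in the stretched cultures of WT replicates 1 and 2 and CAV1-/- replicates 1 and 2, a mean log2 difference of 1.14 (SE 0.14, adjusted p = 0.0164, higher in 4 of 4 animals). Its partner Itgav differed by 0.41 (adjusted p = 0.0464), the β1 chain Itgb1 by 0.40 (adjusted p = 0.0443) and Furin, the convertase that cleaves the TGF-β propeptide, by 0.53 (adjusted p = 0.0464), each higher in 4 of 4 animals. Adamts1, a secreted metalloprotease, fell by 0.88 (adjusted p = 0.0325, lower in 4 of 4).

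No gene of the latency and matrix storage list passed (0 of 10, median -0.08). Fn1, fibronectin, had a mean log2 difference of -0.44 (SE 0.14, adjusted p = 0.126, lower in 4 of 4 animals). Eln, elastin, was at 86.8 and 113.8 in WT static and 3.01 and 50.9 in WT stretched cultures, but at 0.25 and 0.21 in CAV1-/- static cultures, which is 3 and 2 reads, and at 0.29 and 0.38 in CAV1-/- stretched cultures. The genotype difference of Eln in static cultures had a limma adjusted p of 0.122, and that of Emilin1, an elastin-associated glycoprotein, was 1.53 (adjusted p = 0.801).

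Among the other receptors of the family, Acvr1b, the activin type I receptor, fell by 0.34 (adjusted p = 0.0464, lower in 4 of 4 animals), and the other 6 of 7 did not pass (median 0.15). Of the co-receptors, decoys and regulators of receptors, Smurf2, a ubiquitin ligase that targets TGF-β receptors, rose by 0.46 (adjusted p = 0.0188, higher in 4 of 4), and 14 of 15 did not pass (median 0.03). Fstl3, which binds activin, rose by 0.85 (adjusted p = 0.0231, higher in 4 of 4) among the soluble binders, where 7 of 8 did not pass (median -0.17).

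Among the other ligands of the family, the bone morphogenetic proteins Bmp4 and Bmp6 passed the threshold (2 of 9 fell, 0 rose, median -0.19). Of the 9 differences, passed or not, 3 were positive and 6 negative. Bmp4 was at 32.1, 40.3, 7.17 and 20.1 in the static and at 9.37, 12.8, 3.01 and 5.25 in the stretched cultures of WT replicates 1 and 2 and CAV1-/- replicates 1 and 2. This was a mean log2 difference of -1.51 (SE 0.14, adjusted p = 0.0129), lower in 4 of 4 animals, and -1.67 without CAV1-/- replicate 1 (adjusted p = 0.0265). Bmp6 differed by -0.81 (adjusted p = 0.0191, lower in 4 of 4). Inhba did not pass but differed by more in size than Bmp6, at 0.85 (SE 0.18, limma adjusted p = 0.0597, higher in 4 of 4).

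Of the direct response genes, 2 of 14 rose and 2 fell on stretch (median 0.06). The rises were in feedback genes of TGF-β signaling, Pmepa1 by 0.89 (adjusted p = 0.0162) and Skil by 0.46 (adjusted p = 0.0208). The falls were in Id1, by 0.50 (adjusted p = 0.0431), and Id3, by 0.61 (adjusted p = 0.0148), both known as targets of BMP as well as TGF-β receptors. Each had 1 direction in 4 of 4 animals. No intracellular Smad passed (0 of 7, median -0.0071), the largest differences being those of Smad9 (-0.52, adjusted p = 0.0506) and of the inhibitory Smad6 (-0.35, adjusted p = 0.0994), and in static cultures Smad6 was at 25.5 and 26.5 in CAV1-/- against 61.7 and 45.5 in WT MCs (log2 difference -1.001, adjusted p = 0.133).

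**Figure D5:**
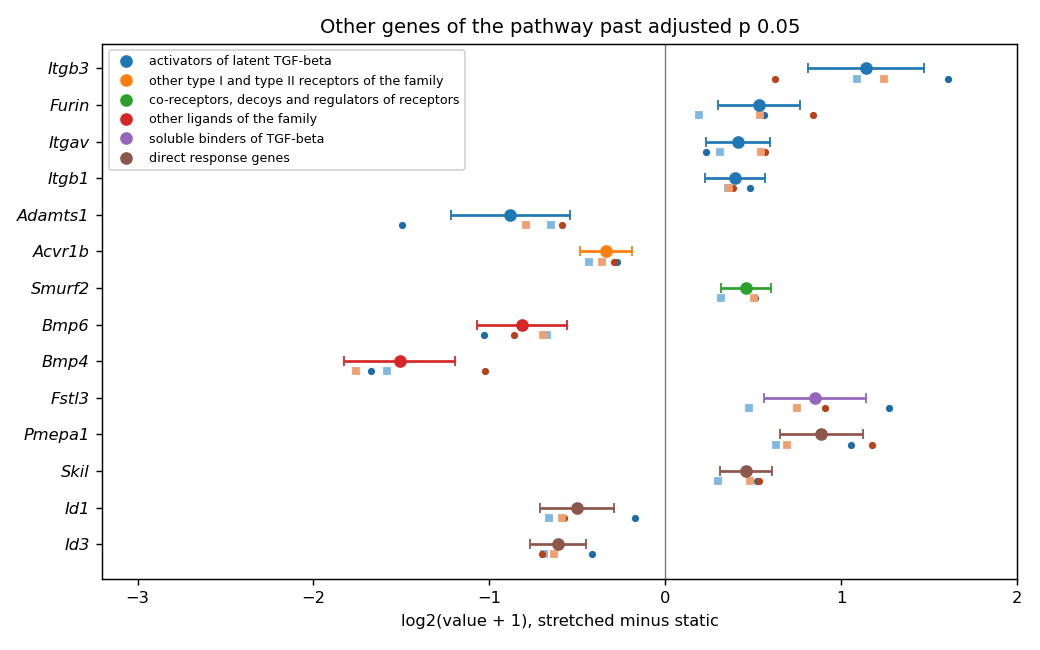
Mean difference in log2(value + 1) between stretched and static cultures with 95% intervals (large points, colored by list) for the 14 pathway genes past an adjusted p of 0.05, with the 4 animals as small points below each (colors and shapes as for the members by library). In each gene the 4 animals lie on 1 side of 0, from Bmp4 at -1.51 to Itgb3 at 1.14. The genes were picked by a test on these same 4 differences.

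Genes with the profile most like each ligand over the 8 libraries were sought among 10766 genes with a mean of at least 5, as a description. For Tgfb1 these were Slc20a1 (r = 0.972), Stag2 (r = 0.967) and Vkorc1l1 (r = 0.965). Tgfb2 was most like Mapkbp1 (r = 0.951), Palld (r = 0.931) and Abl1 (r = 0.930), and Tgfb3 most like Chmp6 (r = 0.961), Stra13 (r = 0.946) and Rtfdc1 (r = 0.941). The static and stretched libraries of an animal are not independent points, and the highest of many correlations over 8 libraries is high by selection.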

How the data were processed

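RNAseq libraries of poly(A) RNA were sequenced as single reads. The authors trimmed reads with Cutadapt, used RSEM on the GRCm38 transcriptome for read estimates, and scaled these with TMM (edgeR). The deposited signal is TMM-normalized CPM. All values were whole multiples of the value of 1 read (100% within 0.01), which gave the reads behind them. RSEM divides reads among overlapping transcripts, so counting error is a minimum.

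Values were put on the log2(value + 1) scale, with 1 as the pseudocount, and genes reaching a value of 1 in 2 or more libraries were tested (13665). All 8 libraries entered limma (version 3.58.1, R version 4.3.3) with 1 mean per group, or with the animal as a block for the average stretch effect, with Benjamini-Hochberg adjustment over all genes. The labels name the animal of each culture, and deviations of cultures paired by animal correlated at r = 0.703 in WT and 0.850 in CAV1-/- MCs. Alternatives were pseudocounts of 0.1 and 5, no filter, a mean of at least 5, median-of-ratios and quantile scaling, on recovered reads, DESeq2 (version 1.42.0) and the quasi-likelihood fit of edgeR (version 4.0.16), only the 4 libraries compared, fits with or without a block, and leaving out a culture or animal. The fits were also run on simulated data as a check of the code. The spread between animals and the size of the changes were set by hand there, so the check does not bear on power in these data.

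Named genes were all members, the pathway genes past the threshold in a comparison, in lists without one the 2 largest differences in the static genotype comparison and in the average stretch effect among genes with a mean of at least 5, Cav1, the 3 genes most like each ligand, and markers where sums are given. Inhba was named besides, because its difference exceeded in size that of the called Bmp6. The members, lists and the average stretch effect were chosen with earlier results of these data known, and the ratios after seeing the values. Exon lengths and positions are from GENCODE M21 (GRCm38), which held 13597 of the gene identifiers.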

Additional observations from a re-analysis of the deposited data

Results flagged for a closer look

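For Tgfb2 and Ltbp1, both WT animals were lower and both CAV1-/- animals higher in the stretched than in the static culture, so the genotypes went in opposite directions. Ltbp1 was only 0.91% lower in WT replicate 2. The interaction was 0.80 on the log2 scale for Tgfb2 and 0.25 for Ltbp1, and neither passed limma's test of the interaction (adjusted p = 1 for each). Opposite directions of this kind were seen in 8.98% of all genes. Groups of 2 cultures were too small to be searched for outlying samples.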

How the results depend on the processing

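The 54 log2 fold changes of the members, none of which had passed the threshold, were recomputed to 774 values. Of these values 696 kept their direction and 78 reversed, in 35 of the 54. Of 9 members, the average stretch effect called 1 when genes with a mean under 5 were left out and 1 after quantile normalization (Tgfbr3 in each), and 3 with DESeq2 (Tgfb3, Tgfbr2 and Tgfbr3), and it called 0 to 1 with an animal left out (Tgfbr3 without WT replicate 2). With no block it called 0 members and 0 genes, against 308 genes with the animal as the block. DESeq2 called 777 genes, and leaving out an animal 0 to 145. The count without CAV1-/- replicate 1 was 4, and without CAV1-/- replicate 2 it was 0. In the genotype comparisons the numbers 1 and 2 join different animals, and with the replicate block Tgfbr1 was called, 1 of 9 members in static (adjusted p = 0.0344) and 1 in stretched cultures (adjusted p = 0.0485, limma), with 246 and 110 genes called against 10 and 8 without it. DESeq2 called 309 and 238 genes and edgeR 2 and 6. Deviations of same-numbered cultures of the genotypes correlated at r = 0.522 in static and 0.484 in stretched cultures. The animal as a block called 0 members in the stretch comparisons within a genotype and in the interaction. The causes of these differences were not tested.

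Other settings also reversed directions. Eng on stretch in WT was 0.0067 with a pseudocount of 5, 0.029 after quantile normalization, 0.16 with edgeR and 0.17 with DESeq2, and Acvrl1 there was -0.010 with edgeR and -0.0017 with DESeq2. Between genotypes in stretched cultures, Tgfbr2 was -0.012 after quantile normalization and Eng -0.29 with edgeR and -0.28 with DESeq2. The interaction of Tgfbr1 was -0.0071 after median-of-ratios scaling and -0.044 after quantile normalization.

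With 1 culture left out, the log2 difference on stretch in WT ranged from -0.0047 to 0.66 for Tgfb1, -0.28 to 0.65 for Tgfbr1, -1.30 to 1.22 for Eng, -0.41 to 0.42 for Acvrl1 and -0.55 to 0.35 for Ltbp1. In CAV1-/- MCs it ranged from -0.14 to 0.71 for Tgfb2, -0.69 to 0.15 for Tgfb3, -0.31 to 0.71 for Tgfbr1, -0.50 to 0.082 for Tgfbr2, -0.66 to 0.25 for Eng, -0.15 to 0.44 for Acvrl1 and -0.39 to 0.69 for Ltbp1. The genotype difference in static cultures ranged from -0.21 to 0.65 for Tgfb2, -0.80 to 0.034 for Tgfb3, -0.24 to 0.093 for Tgfbr2, -0.61 to 0.17 for Tgfbr3, -0.65 to 1.27 for Eng, -0.63 to 0.20 for Acvrl1 and -0.73 to 0.35 for Ltbp1. In stretched cultures it ranged from -0.020 to 0.64 for Tgfb1, -0.24 to 0.34 for Tgfbr2, -1.15 to 0.23 for Tgfbr3, -1.11 to 1.41 for Eng, -0.43 to 0.26 for Acvrl1 and -0.44 to 0.56 for Ltbp1. The interaction ranged from -0.23 to 0.43 for Tgfb1, -0.16 to 0.68 for Tgfb3, -0.50 to 0.53 for Tgfbr1, -0.17 to 0.41 for Tgfbr2, -0.92 to 0.45 for Tgfbr3, -1.42 to 1.10 for Eng, -0.28 to 0.55 for Acvrl1 and -0.29 to 0.79 for Ltbp1. With 1 animal left out, the average stretch effect ranged from -0.32 to 0.055 for Tgfb2 and -0.029 to 0.096 for Ltbp1.

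Ligand shares moved with the length used. With the longest transcript, the mean share of Tgfb1 was 28.6% in WT static, 41.9% in WT stretched, 37.0% in CAV1-/- static and 47.9% in CAV1-/- stretched cultures, that of Tgfb3 67.8%, 55.2%, 58.2% and 46.5%, and that of Tgfb2 3.58% in WT static cultures. With no division by length, the share of Tgfb1 was 22.9%, 34.9%, 30.2% and 40.0%, that of Tgfb3 71.4%, 60.3%, 62.2% and 50.7%, and that of Tgfb2 5.70%, 4.81%, 7.63% and 9.30%. The log2 changes of the ratios, recomputed with a pseudocount of 1 or without an animal (settings chosen after seeing the data), stayed between -0.81 and -0.75 for Tgfb3 to Tgfb1 and between -0.49 and -0.42 for Tgfbr2 to Tgfbr1.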
